A study of Homo sapiens with 8 samples.

Results

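The genes described here serve autophagy and were read on 8 arrays of metastatic lymph nodes. They are GABARAP, GABARAPL1, GABARAPL2, MAP1LC3A, MAP1LC3B, SQSTM1, ULK1, TFEB and BNIP3, which make 9 of the 17491 genes with a named probe set on the array. The probe set of a gene was chosen by its mean over the 8 arrays, the highest being taken, but each of the 9 had 1 probe set, so this choice was never called on. The genes themselves were selected on earlier results of these same arrays. The nodes came from BALB/c nude mice, an athymic strain, that bore tumours of the human melanoma cell line SkMel147 under the skin. In 4 samples the mice drank doxycycline, meant to induce Omomyc in the tumour, and in 4 they drank the vehicle. Omomyc is a dominant-negative protein derived from MYC. Mice were treated once tumours measured about 750 mm3, and nodes were taken 2 days later and homogenized whole, so human tumour RNA and mouse host RNA were hybridized together. The age of the mice, the promoter that drives Omomyc and whether the line is a clone are not stated in the labels. No samples of doxycycline without Omomyc were analysed here, so effects of the drug and of the transgene cannot be told apart.

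Autophagy encloses cell contents in a double membrane, the autophagosome, and delivers them to the lysosome. Small ubiquitin-like proteins of the LC3 and GABARAP family are coupled to the lipid of that membrane, where they help it close and hold the adaptors that bring cargo. ULK1 is the kinase that starts the process, SQSTM1 (p62) and BNIP3 are adaptors that bind LC3 or GABARAP, and TFEB is a transcription factor of lysosomal and autophagy genes. TFEB and MYC with its partner MAX both bind the E-box sequence CACGTG. The arrays read mRNA, so lipid coupling and the flux of cargo were not measured.

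The promoters of the 2 genes with the largest differences between the groups are shown with their sequence motifs, since the E-box is the site that MYC and TFEB share. Promoter windows from RefSeq (GRCh38.p14, 250 bases before to 50 bases after the start of a transcript) were found for 8 of the 9 genes, in 12 windows. The 250 bases before the start are printed 5′ to 3′ on the gene's strand in lower case, with motif matches in capitals. The GABARAPL1 window lies at chr12:10212627-10212876 on the plus strand, and that of BNIP3 at chr10:131981924-131982173 on the minus strand.
GABARAPL1: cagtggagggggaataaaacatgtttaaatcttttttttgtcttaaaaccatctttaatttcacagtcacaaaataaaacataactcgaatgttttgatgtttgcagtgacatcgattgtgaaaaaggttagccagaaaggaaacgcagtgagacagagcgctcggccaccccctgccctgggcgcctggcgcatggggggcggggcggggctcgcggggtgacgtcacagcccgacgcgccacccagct
BNIP3: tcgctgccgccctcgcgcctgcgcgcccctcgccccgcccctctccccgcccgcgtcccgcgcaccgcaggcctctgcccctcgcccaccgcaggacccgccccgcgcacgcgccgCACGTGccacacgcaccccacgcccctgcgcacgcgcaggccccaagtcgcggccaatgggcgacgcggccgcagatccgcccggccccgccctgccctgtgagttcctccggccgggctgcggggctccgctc
The capitals in BNIP3 are the E-box CACGTG, whose first base lies 134 bases before the start. BNIP3 was the only 1 of the 8 genes with an E-box in its windows, whereas 8.77% of 27305 genes held it in a window of this kind. The longer, palindromic form of 10 bases known as the CLEAR element, found in lysosomal genes that TFEB regulates, was in 0 of the 8 genes and in 0.421% of all genes. The looser pattern TCANGTGA, with any base at N, includes forms bound by TFEB relatives such as MITF but also others. It matched in MAP1LC3B on the opposite strand, where the gene's strand reads TCACCTGA, 51 bases before the start, and in 4.65% of all genes. The hypoxia response core ACGTG was in BNIP3, where it overlaps the E-box on both strands, in GABARAPL2, 105 bases before the start, and in 24.9% of all genes. The antioxidant response core TGACNNNGC was in MAP1LC3B, 46 bases before the start and overlapping TCACCTGA, and in 16.1% of all genes. The forkhead sequence GTAAACA was in 0 of the 8 genes and in 4.19% of all genes. Both strands were searched in every case. The BNIP3 stretch was 81.6% G and C with 41 CpG pairs, and that of GABARAPL1 was 51.6% with 15. Over the first listed window of each gene, the median was 71.6% and 25.5 pairs for the 8 genes and 58.0% and 11 pairs for all genes. These letters describe the windows and say nothing of whether a factor bound there.

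Array values are log2 units of the deposited RMA values, in which 1 unit is a doubling. The array medians lay between 5.07 and 5.12. Vehicle replicate 1 stood apart: across genes, which are no independent replicates, it correlated with the other 7 arrays at 0.941 on average. Among those 7 the correlations lay between 0.972 and 0.983. The difference of each of the 9 genes is therefore given with and without this array. Of 8 measured melanocyte lineage markers, 4 lay above the array median in every array, as did 4 of 6 for B cells and 2 of 7 for T cells. The counts were 5 of 8 for macrophages and dendritic cells, 4 of 6 for fibroblasts and 4 of 7 for skeletal muscle. They were 2 of 7 for endothelium, 2 of 7 for adipocytes and 1 of 4 for keratinocytes. The share of all genes above the median was not counted, so these counts do not show which cell types were present. The share of human RNA was not measured. In whole nodes, fewer cells of a type and less RNA per cell cannot be told apart.

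With doxycycline, GABARAPL1 was the member that differed most, followed by BNIP3, while the other 7 members differed by less than 0.15 log2 units in either direction. Over all genes tested, 0 of the 9 passed an adjusted p under 0.05 (limma with Benjamini-Hochberg adjustment, two-sided), as did 0 of 17491 genes, or 0%. At an unadjusted p under 0.05 there was 1 of 9, GABARAPL1, against 3.8% of all genes. The values of the groups were free of overlap for 0 of 9, against 2.62% of all genes. A difference above 0 was seen for 7 of 9, against 55.5% of all genes. The 7 include ULK1, at only 6.21e-05, and the count was not stable: it was 5 of 9 under quantile normalization and 8 of 9 without vehicle replicate 3. The median difference was 0.072 over the 9 and 0.021 over all genes. Without vehicle replicate 1, 0 of 9 passed, 2 of 9 had an unadjusted p under 0.05 (4.91% of all genes), 0 of 9 were free of overlap (5.67%), and 6 of 9 lay above 0 (50.8%). The median was then 0.018 over the 9 and 0.00315 over all genes. The labels call the samples biological replicas, but do not name the animal of each array.

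**Figure D1:**
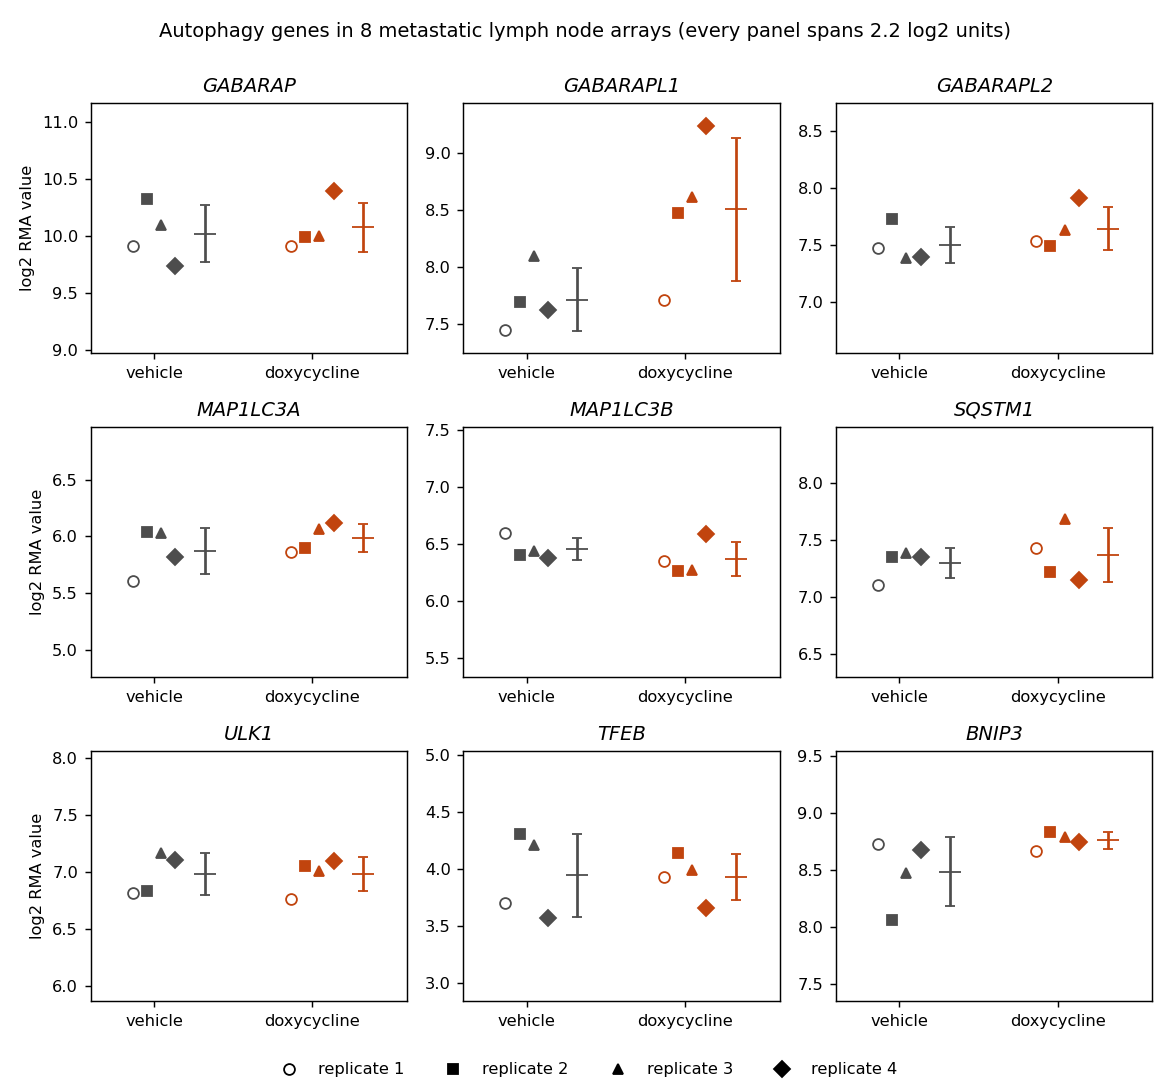
Log2 RMA values of the 9 genes (vertical axis, each panel spanning the same number of log2 units) in the vehicle and doxycycline arrays (horizontal axis), with a marker for each replicate and the mean ± SD beside each group (n = 4). In GABARAPL1, 3 of the 4 doxycycline arrays lie above all vehicle arrays and the fourth, at 7.71, lies among them, whereas in the other panels except BNIP3 at most 2 doxycycline arrays lie above all vehicle arrays.

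GABARAPL1 encodes a GABARAP-type protein that is coupled to the autophagosome membrane. It was at 7.44, 7.69, 8.09 and 7.62 in vehicle replicates 1 to 4 and at 7.71, 8.47, 8.61 and 9.24 in doxycycline replicates 1 to 4. Doxycycline replicates 2, 3 and 4 lay above every vehicle array, whereas doxycycline replicate 1 lay within the vehicle range, so the groups overlapped. The group means were 7.71 ± 0.27 (SD, n = 4) and 8.51 ± 0.63 (SD, n = 4). The difference was 0.79 ± 0.26 (SE), a 1.73-fold higher mean, with a 95% confidence interval from 0.22 to 1.37 log2 units, or 1.17 to 2.58 fold. It did not pass over all genes (limma adjusted p = 0.987). Only 8 of 17491 genes, GABARAPL1 included, had a difference at least this far above 0 (0.0457%), and by p it ranked 102. The members were selected on earlier results of these same arrays, so the ranks, intervals and p-values given here are description, not independent evidence. Without vehicle replicate 1 the difference was 0.70 ± 0.26 (SE), with an interval from 0.14 to 1.27 (limma adjusted p = 0.962), and 13 genes (0.0743%) lay at or above it. Without doxycycline replicate 4, the highest array, it was 0.55, and without doxycycline replicate 1, the lowest of its group, it was 1.06. The rank moved too: 51 of 17491 genes lay at or above GABARAPL1 in the former fit and 2 in the latter. Over 17 alternative fits, which share most of their arrays, the difference lay between 0.55 and 1.06, with an unadjusted limma p from 0.000418 to 0.0345. In 5 of the 17 the setting could not move this gene's difference, and in the other 12 it could. The gene GABARAPL3, a near-identical copy, was not analysed here, and the probes may read both.

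The spread of GABARAPL1 over the arrays was wide: its range of 1.79 log2 units was matched or exceeded by 1.79% of all genes. It was the only member with a range over 1 log2 unit, which 12.9% of all genes had. The 3 genes whose values, after subtraction of their own mean, lay nearest to those of GABARAPL1 over the 8 arrays were MT1G, MT1M and SLC36A2. MT1G and MT1M encode metallothioneins, small proteins that bind zinc and copper, and SLC36A2 encodes an amino acid transporter. The root mean square difference from GABARAPL1 was 0.155 log2 units for MT1G, 0.199 for MT1M and 0.241 for SLC36A2, against an SD of 0.618 for GABARAPL1 itself. MT1G was at 9.68, 9.80, 10.36 and 9.37 in vehicle replicates 1 to 4 and at 9.83, 10.56, 10.59 and 11.42 in doxycycline replicates 1 to 4. As for GABARAPL1, doxycycline replicate 1 lay within the vehicle range and doxycycline replicate 4 was the highest array. The treatment difference was 0.80 ± 0.29 (SE) for MT1G, 0.73 ± 0.26 (SE) for MT1M and 0.38 ± 0.25 (SE) for SLC36A2. Without doxycycline replicate 4 the MT1G value was 0.52 and that of SLC36A2 was 0.12. None of the 3 passed over all genes (limma adjusted p = 0.987 for each). Since these genes were chosen for their likeness to GABARAPL1, their differences add no independent evidence.

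**Figure D2:**
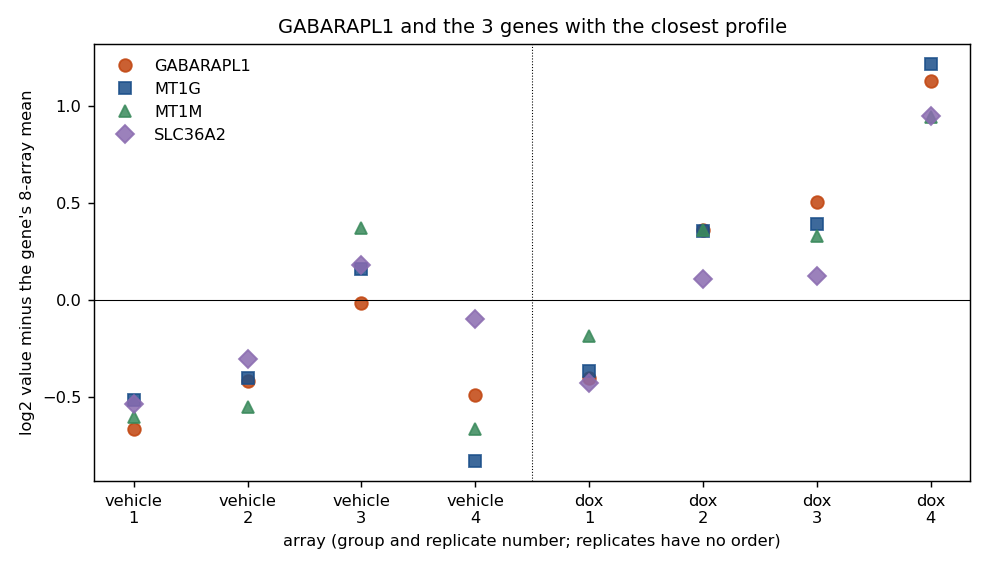
Log2 value minus the gene's own mean over 8 arrays (vertical axis) for GABARAPL1 and the 3 genes with the closest profile, in each array (horizontal axis, vehicle left and doxycycline right of the dotted line). All 4 genes are highest in doxycycline replicate 4, and in doxycycline replicate 1 all lie below their own mean.

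Markers of other cell types also varied between these arrays. The mean of 7 measured skeletal muscle markers lay between 5.78 and 6.70 in the vehicle arrays and between 5.96 and 7.07 in the doxycycline arrays, and 7 of 7 markers differed by more than 0 with doxycycline. It was lowest in vehicle replicate 1, highest in doxycycline replicate 1 and at 5.96 in doxycycline replicate 4. The mean of 7 adipocyte markers lay between 5.13 and 5.54 with vehicle and between 5.57 and 5.86 with doxycycline, so that these ranges did not overlap, and 5 of 7 differed by more than 0. It was lowest in vehicle replicate 1, as GABARAPL1 was, and highest in doxycycline replicate 3. The mean of the melanocyte lineage markers lay between 5.17 and 5.46 with vehicle and between 5.46 and 5.49 with doxycycline, and was likewise lowest in vehicle replicate 1 and highest in doxycycline replicate 3. The mean of the B cell markers lay between 6.11 and 6.39 with vehicle and between 6.27 and 6.42 with doxycycline. It was lowest in vehicle replicate 1 and highest in doxycycline replicate 4, the same arrays as for GABARAPL1. Of the 9 marker lists, 6 had their lowest mean in vehicle replicate 1 and 1, that of B cells, had its highest in doxycycline replicate 4. Of all single genes, 28.8% were lowest in vehicle replicate 1 and 11.9% highest in doxycycline replicate 4. The part of any of these cell types in the GABARAPL1 difference was not tested.

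GABARAP, the founding member of its subfamily, was at 9.91, 10.33, 10.10 and 9.74 in vehicle replicates 1 to 4 and at 9.91, 9.99, 10.00 and 10.40 in doxycycline replicates 1 to 4. The ranges of both groups overlapped for most of their length. The difference was 0.054 ± 0.16 (SE), and its 95% confidence interval ran from -0.29 to 0.40. It was 0.018 without vehicle replicate 1 and turned to -0.063 under quantile normalization, to -0.039 without vehicle replicate 4 and to -0.054 without doxycycline replicate 4. GABARAPL2, also known as GATE-16, was at 7.48, 7.73, 7.39 and 7.40 with vehicle and at 7.54, 7.49, 7.64 and 7.91 with doxycycline. Only doxycycline replicate 4 lay above all vehicle arrays. The difference was 0.14 ± 0.14 (SE), with an interval from -0.15 to 0.44, and 0.14 without vehicle replicate 1 as well. It was 0.056 without doxycycline replicate 4 and 0.22 without vehicle replicate 2. GABARAP, GABARAPL1, GABARAPL2 and MAP1LC3A were all highest in doxycycline replicate 4, which was the highest array for 4 of the 9 members and for 11.9% of all genes.

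MAP1LC3A encodes LC3A, of the second subfamily of these membrane-coupled proteins. It was at 5.61, 6.04, 6.03 and 5.82 in vehicle replicates 1 to 4 and at 5.87, 5.90, 6.07 and 6.12 in doxycycline replicates 1 to 4. Vehicle replicate 1 was the lowest array, and the rest of the values interleaved. The difference of 0.12 ± 0.14 (SE) had an interval from -0.18 to 0.41, and it was 0.027 without vehicle replicate 1. Leaving out doxycycline replicate 4 gave 0.073. MAP1LC3B, which encodes LC3B, the protein most used as a marker of autophagosomes, was at 6.59, 6.40, 6.44 and 6.38 with vehicle and at 6.35, 6.26, 6.27 and 6.59 with doxycycline. It was highest in vehicle replicate 1 and, at nearly the same value, in doxycycline replicate 4. It was the steadiest member, with a range of 0.33 log2 units over all 8 arrays, and 6.32% of all genes had a smaller range. The difference was -0.084 ± 0.12 (SE), with an interval from -0.35 to 0.18, moving to -0.038 when vehicle replicate 1 was left out and to -0.16 when doxycycline replicate 4 was. Of the family's other genes, MAP1LC3C differed by 0.10 ± 0.13 (SE), or from 0.053 to 0.18 with each array left out in turn, and MAP1LC3B2, a near-identical copy of MAP1LC3B, by -0.045 ± 0.17 (SE). Probes of MAP1LC3B and MAP1LC3B2 may each read both genes, and the MAP1LC3B2 difference turned to 0.078 without vehicle replicate 2 and to 0.00965 without vehicle replicate 4.

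Of the adaptors, BNIP3 encodes a mitochondrial membrane protein that is induced in hypoxia and marks mitochondria for autophagy. It was at 8.72, 8.06, 8.47 and 8.68 in vehicle replicates 1 to 4 and at 8.67, 8.83, 8.79 and 8.74 in doxycycline replicates 1 to 4. Doxycycline replicates 2, 3 and 4 lay above every vehicle array and doxycycline replicate 1 lay just under the highest 2 of them. The group means were 8.48 ± 0.30 (SD, n = 4) and 8.76 ± 0.072 (SD, n = 4), so the doxycycline arrays lay close together near the top of the vehicle range. The difference was 0.28 ± 0.15 (SE), a 1.21-fold higher mean, with an interval from -0.056 to 0.61 log2 units (limma adjusted p = 0.987). Without vehicle replicate 1 it was 0.36 ± 0.15 (SE), with an interval from 0.030 to 0.68 (limma adjusted p = 0.962). Without vehicle replicate 2, the lowest array, it was 0.13.

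SQSTM1 encodes p62, which binds ubiquitin on cargo and LC3 on the membrane. It was at 7.11, 7.35, 7.38 and 7.35 in vehicle replicates 1 to 4 and at 7.43, 7.21, 7.68 and 7.15 in doxycycline replicates 1 to 4. The doxycycline values lay on both sides of the 3 close vehicle values. The difference was 0.072 ± 0.14 (SE), with an interval from -0.24 to 0.38, moving to 0.00800 when vehicle replicate 1 was left out and to -0.032 when doxycycline replicate 3 was.

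ULK1, the initiating kinase, was at 6.81, 6.83, 7.17 and 7.11 in vehicle replicates 1 to 4 and at 6.76, 7.05, 7.01 and 7.10 in doxycycline replicates 1 to 4. The group means were 6.98 ± 0.18 (SD, n = 4) and 6.98 ± 0.15 (SD, n = 4), and the difference was 6.21e-05 with an interval from -0.29 to 0.29. It was -0.056 without vehicle replicate 1, and since it changed sign between fits no direction is given. TFEB was at 3.70, 4.30, 4.21 and 3.57 with vehicle and at 3.93, 4.14, 3.99 and 3.66 with doxycycline. Its values lay below the array medians in every array, and the doxycycline values lay inside the vehicle range. The difference was -0.017 ± 0.18 (SE), with an interval from -0.41 to 0.38. It turned to 0.10 without vehicle replicate 2, to 0.072 without vehicle replicate 3, to 0.074 without doxycycline replicate 4 and to 0.029 with array weights, and it was -0.099 without vehicle replicate 1. For the 7 members other than GABARAPL1 and BNIP3, the intervals with all arrays left room for differences of up to 0.44 log2 units above 0 and 0.41 below.

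**Figure D3:**
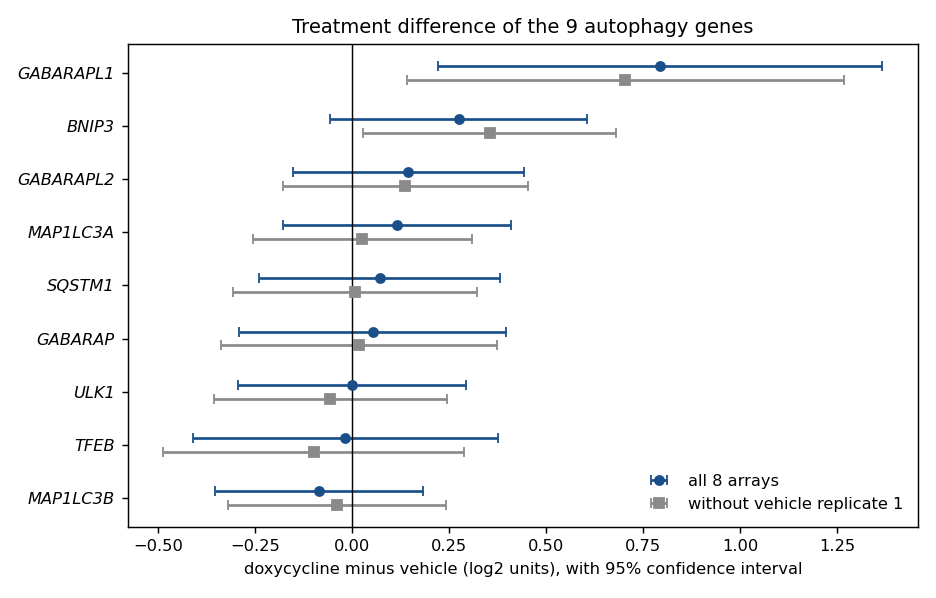
Doxycycline minus vehicle in log2 units with the 95% confidence interval of the limma fit (horizontal axis) for each of the 9 genes (vertical axis), with all 8 arrays and without vehicle replicate 1. The GABARAPL1 interval lies above 0 in both fits (0.22 to 1.37 with all arrays), that of BNIP3 only without vehicle replicate 1 (0.030 to 0.68), and the other 7 span 0 in both.

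Vehicle replicate 1 touched the members unevenly. It was the lowest of the 8 arrays for GABARAPL1, MAP1LC3A and SQSTM1, or 3 of 9, where 28.8% of all genes were lowest there. It was the highest for MAP1LC3B, or 1 of 9, against 15.2% of all genes. Relative to the mean of the other 7 arrays it differed by -0.76 for GABARAPL1, -0.37 for MAP1LC3A and 0.21 for MAP1LC3B. Those 7 include the 4 doxycycline arrays, so these values also hold any difference between the groups. Within the vehicle group, it was at 7.44 for GABARAPL1 against 7.62 to 8.09 in the others. For MAP1LC3A it was at 5.61 against 5.82 to 6.04, and for MAP1LC3B at 6.59 against 6.38 to 6.44.

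The wider pathway was read from 12 gene lists, of which 144 of 161 genes were measured, members included. Of these 144, 0 passed over all genes (limma, Benjamini-Hochberg), and at an unadjusted p under 0.05 there were 2 higher and 1 lower, or 2.08%, against 3.8% of all genes. The 3 were GABARAPL1, ATG14 and ATP6V0E1. The groups did not overlap for 3 of the 144, against 2.62% of all genes, and these were ATG14, ATP6V0E1 and HEXA, the last chosen after its values were seen. The median difference of the 144 genes was 9.61e-05, and 0.030 without vehicle replicate 1, when 10 of them, or 6.94%, had an unadjusted p under 0.05, against 4.91% of all genes. With each array left out in turn, the medians of 9 of the 12 lists took both signs, so no direction is given for these 9, and all 12 lay between -0.15 and 0.16.

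Among the genes that start an autophagosome, ULK2, the second ULK kinase, differed by 0.27 ± 0.13 (SE) and ATG101, a subunit of the same complex, by -0.12 ± 0.14 (SE). The ATG101 difference turned to 0.00154 without doxycycline replicate 3. ATG14, the subunit that directs the lipid kinase VPS34 to new autophagosomes, averaged 5.84 ± 0.096 (SD, n = 4) in the vehicle arrays and 6.15 ± 0.17 (SD, n = 4) in the doxycycline arrays. Every doxycycline array lay above every vehicle array for ATG14, and its difference was 0.31 ± 0.13 (SE), but it did not pass over all genes (limma adjusted p = 0.987). PIK3R4, another subunit, differed by -0.16 ± 0.12 (SE). In membrane supply, the lipid transfer genes ATG2A and ATG2B differed by -0.32 ± 0.17 (SE) and 0.16 ± 0.15 (SE). With each array left out in turn ATG2A ranged from -0.44 to -0.20, the latter without doxycycline replicate 3. ATG2B ranged from 0.098 without vehicle replicate 3 to 0.29 without vehicle replicate 4. Of the enzymes that trim LC3 and GABARAP proteins before they are coupled to lipid, ATG4A differed by 0.17 ± 0.14 (SE) and ATG4B by -0.22 ± 0.21 (SE). Without vehicle replicate 1 the ATG4B value was -0.070, and those of ULK2 and ATG4A were 0.19 and 0.11. ATG4B was -0.067 without doxycycline replicate 3, -0.37 without doxycycline replicate 2 and -0.34 without vehicle replicate 4, and ATG4A was 0.076 without doxycycline replicate 4. The medians of these 4 lists, from initiation to lipid coupling, lay between -0.044 and 0.047, with 0 of 31 measured genes called. Without vehicle replicate 1 they lay between 0.0017 and 0.059, so that those of the VPS34 complexes (-0.044) and of membrane supply (-0.031) changed sign.

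Among the adaptors other than SQSTM1 and BNIP3, FUNDC1, a mitochondrial receptor, differed by 0.17 ± 0.14 (SE) and CALCOCO2, which encodes NDP52, by -0.24 ± 0.22 (SE), a value that was 0.00756 without vehicle replicate 1. Leaving out doxycycline replicate 4 gave -0.11. The FUNDC1 value was 0.10 without doxycycline replicate 3, 0.11 without vehicle replicate 3 and 0.26 without vehicle replicate 2. The adaptor list had a median of -0.00233, with 7 of 14 measured genes above 0. Of the MiT/TFE factors, TFEC differed by -0.23 ± 0.13 (SE) and MITF by 0.058 ± 0.13 (SE), and the MITF value turned to -0.040 without vehicle replicate 3. The TFEC value was -0.14 without doxycycline replicate 4. Of the regulators of mTORC1, the kinase complex that restrains ULK1 and TFEB, TSC2 differed by 0.27 ± 0.13 (SE) and the AMPK subunit gene PRKAG1 by -0.50 ± 0.50 (SE), which turned to 0.17 without vehicle replicate 1 and was -0.81 without vehicle replicate 3 and -0.76 without vehicle replicate 2. In fusion with the lysosome, VPS39 differed by 0.32 ± 0.15 (SE) and RAB7A by -0.37 ± 0.28 (SE), the latter -0.12 without vehicle replicate 1 and -0.60 without vehicle replicate 4. The 31 measured lysosomal genes had 16 above 0 and 15 below 0, with a median of 0.028. Among them ATP6V0E1, a subunit of the proton pump, differed by -0.62 ± 0.26 (SE), and by -0.30 without vehicle replicate 1. HEXA, a lysosomal hexosaminidase subunit, differed by -0.28 ± 0.13 (SE), and ATP6V1D, another pump subunit, by 0.22 ± 0.15 (SE), which was 0.10 without doxycycline replicate 4. None of these genes passed over all genes (limma adjusted p from 0.987 to 0.991).

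BNIP3 and SQSTM1 are also in lists of genes induced by hypoxia and by the oxidative stress factor NRF2. Of 17 measured hypoxia-induced genes, 7 differed by more than 0, BNIP3 among them, with a median of -0.030. Without vehicle replicate 1 there were 11 of 17 above 0, against 50.8% of all genes, and the median turned to 0.047. DDIT4 in that list differed by -0.33 ± 0.16 (SE) and ANKRD37 by 0.23 ± 0.13 (SE), the latter 0.14 without vehicle replicate 1. Of 10 measured NRF2-induced genes, 5 differed by more than 0, SQSTM1 among them, with a median of 0.015. When vehicle replicate 1 was left out, 4 of 10 lay above 0, and the median turned to -0.028. HMOX1 there differed by 0.26 ± 0.12 (SE) and TXN by -0.95 ± 0.57 (SE), which was -0.15 without vehicle replicate 1.

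**Figure D4:**
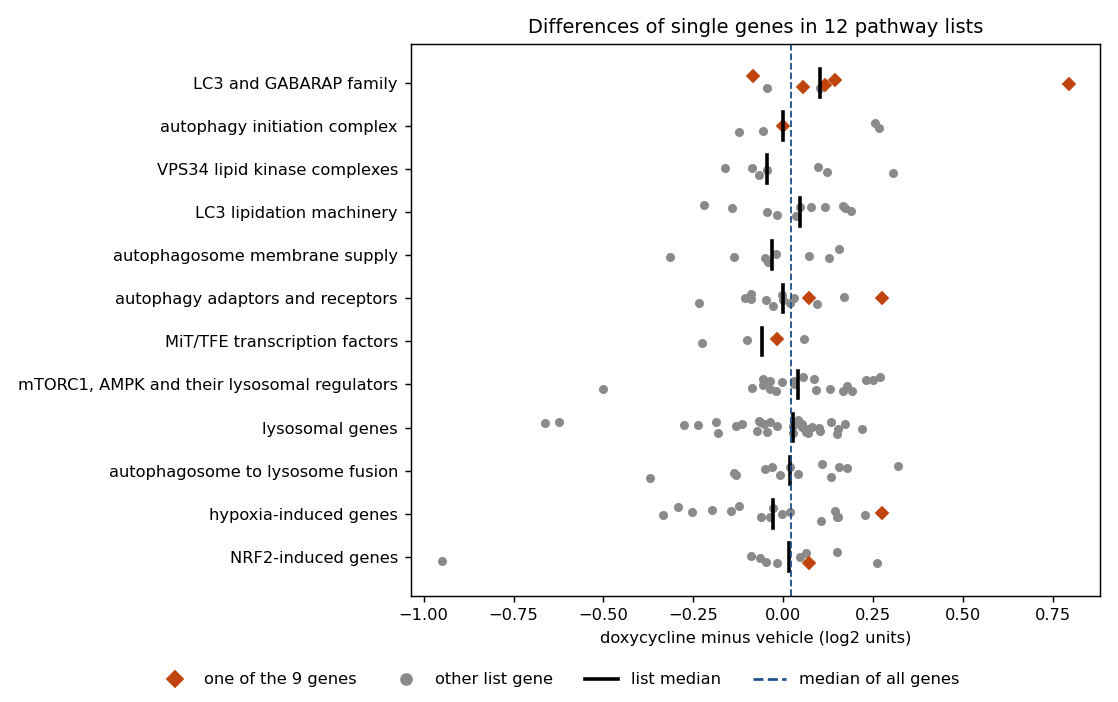
Doxycycline minus vehicle in log2 units (horizontal axis) for every measured gene of 12 pathway lists (vertical axis), with the 9 described genes as diamonds, other genes as circles, the list medians as bars and the median of all genes as a dashed line. The list medians with all 8 arrays lie between -0.058 and 0.10, and GABARAPL1, at 0.79, lies farthest above 0 of all genes plotted.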

How the data were processed

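Expression was measured on 8 one-colour Affymetrix arrays with biotin-labelled total RNA, 1 per lymph node sample. The deposited values are log2 values made by the authors with RMA (background correction, normalization between arrays, probe summary), as the submitters' processing notes name it. Version and build: not given in the sources used here. RMA gives all arrays like distributions, so a shift in total human RNA would appear as changes of single genes. Signal over background was not assessed, and how far human probes read mouse transcripts was not measured.

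Of 18565 probe sets, 17509 had 1 gene symbol, 0 had several and 1056 had none and were left out. The probe set with the highest mean stood for each of 17491 genes. Differences are doxycycline minus vehicle from limma 3.58.1 (lmFit, eBayes) in R 4.3.3 over all genes, two-sided, without covariates, with Benjamini-Hochberg adjustment. The fit was run on simulated data as a check of the code. Noise there was independent for each gene and no array stood apart, so the check does not show what the fit could detect in these arrays. Motifs were counted in Python 3.11.15. The members, lists and motifs were chosen with earlier results of these data known. Named are all members, the family's other measured genes, MYC, the other gene with the smallest p per list and direction (the rule allowed up to 2), and the 3 genes nearest in profile to any member with a range over 1 log2 unit. Protein sequences were not analysed here. Alternatives were a replicate block, other scalings, filters on dim genes, the mean of probe sets, array weights, another variance prior and each array left out. The labels give both groups replicate numbers 1 to 4 without saying what a number shares, so the main fit has no block. The number of arrays limits the precision.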

Additional observations from a re-analysis of the deposited data

Results flagged for a closer look

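In groups of 4 arrays, a value counted as far from the rest when the ratio of its gap from the nearest other to the group's range exceeded Dixon's 95% value. Chance marks about 1 in 20 groups, and 9 of 74 were marked over the 37 named genes. Among the 18 groups of the members there was 1: SQSTM1 in vehicle replicate 1, at 7.11 against 7.35 to 7.38 in the other vehicle arrays. In the same array TXN was at 7.39 against 4.05 to 4.31 and CALCOCO2 at 4.11 against 3.04 to 3.22. In vehicle replicate 3, MITF was at 5.63 against 6.05 at the highest and MT1M at 8.37 against 7.33 to 7.44. ATG2B was at 4.72 in vehicle replicate 4 against 4.15 to 4.23. In doxycycline replicate 2, DDIT4 was at 6.41 against 5.88 to 5.95, and MYC at 5.52 against 5.75 to 5.77. The MYC difference between the groups was -0.35 ± 0.16 (SE), and it did not pass over all genes (limma adjusted p = 0.987). Omomyc is derived from MYC, and whether the MYC probe set also reads Omomyc transcripts was not tested. With each array left out in turn, the MYC difference ranged from -0.51 to -0.26. PRKAG1 was at 5.57 in doxycycline replicate 4 against 4.97 to 5.03.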

How the results depend on the processing

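No fit called any of the 9 members, any of the other listed genes or any gene at all. The count at an adjusted p under 0.05 was 0 with all arrays and in all 17 alternative limma fits. At an unadjusted p under 0.05 there were 483 of 13118 genes without the dimmest 25% and 328 of 8746 without the dimmest 50%. In the other alternative fits, 528 to 998 of 17491 genes had an unadjusted p under 0.05. GABARAPL1, GABARAPL2, MAP1LC3A and BNIP3 stayed above 0 and MAP1LC3B below 0 in all 17. Of these fits, the block, the other variance prior and both filters cannot move a difference. Nor can the mean of probe sets for the members, which have 1 probe set each. The GABARAP difference turned to -0.063 under quantile normalization. That of ULK1 turned to -0.0102 with array medians centred, -0.00908 under quantile normalization, -0.032 under cyclic loess and -0.042 with array weights, and that of TFEB to 0.029 with array weights. With each array left out in turn, the differences ranged from -0.054 to 0.16 for GABARAP, from -0.032 to 0.14 for SQSTM1, from -0.056 to 0.073 for ULK1, from -0.14 to 0.10 for TFEB and from -0.17 to 0.078 for MAP1LC3B2. They ranged from -0.35 to 0.00756 for CALCOCO2, from -0.81 to 0.17 for PRKAG1, from -0.18 to 0.00154 for ATG101 and from -0.040 to 0.10 for MITF. The cause was not tested. TFEB was among the dimmest 25% of genes and has no value in either fit without dim genes. Same-numbered arrays had correlations of their deviations from the group means from -0.049 to 0.15, and 1 of 4 exceeded 0.1. Of the 4 vehicle arrays, 2 correlated best with the doxycycline array of their own number. So few correlations cannot decide whether the replicate numbers pair the arrays. With the replicate number as a block, 0 members were called (GABARAPL1, limma adjusted p = 0.981). The unadjusted limma p of GABARAPL1 was 0.00352 with the block and 0.0106 without it. Of all genes, 734 had an unadjusted p under 0.05 with the block and 665 without it. In 4 balanced pairs the block leaves each difference as it is, 0.79 for GABARAPL1, by construction. Over genes above the median level, the mean correlation of vehicle replicate 1 with the other arrays was 0.882 in place of 0.941, and 0.927 to 0.944 for the other 7. In the 250 bases before the start alone, 7.73% of genes held the E-box, and BNIP3 was again the only 1 of the 8 members with a window that did. The median standard error over all genes was 0.15 log2 units.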

Other observations

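The metallothionein genes were looked at after MT1G and MT1M had come out nearest to GABARAPL1, so their values are a description. Of 12 measured metallothionein genes, 8 had a difference above 0, against 55.5% of all genes, and 0 passed over all genes (limma). At an unadjusted p under 0.05 there were 4, MT1G, MT1M, MT1L and MT1IP, against 3.8% of all genes, but MT1G and MT1M were picked for their likeness to GABARAPL1. MT1L differed by 0.72 ± 0.26 (SE) and MT1IP by 0.76 ± 0.25 (SE), and these were 0.80 and 0.91 without vehicle replicate 1. MT1L was at 10.07, 9.55, 10.35 and 9.36 in vehicle replicates 1 to 4 and at 9.84, 10.87, 10.51 and 10.97 in doxycycline replicates 1 to 4. The groups were free of overlap for 0 of the 12, against 2.62% of all genes. Doxycycline replicate 4 was the highest array for 8 of the 12, as it was for GABARAPL1, against 11.9% of all genes. These are not the same 8 as those with a difference above 0: MT1H, below 0, was among them, and MT1HL1, at 0.27, was not. The 4 genes with a difference below 0 were MT1E, MT3, MT1H and MT2A. MT1E differed by -0.69 ± 0.33 (SE) and MT3 by -0.32 ± 0.15 (SE), and these were -0.30 and -0.34 without vehicle replicate 1. MT1H differed by -0.00229, and by 0.10 without vehicle replicate 1. MT2A was at 9.86, 7.39, 7.38 and 7.99 with vehicle and at 7.12, 7.33, 7.61 and 8.05 with doxycycline, so that its difference of -0.63 was -0.056 without vehicle replicate 1. Metallothionein genes resemble each other closely, so a probe set may read several of them.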
